A study of Mus musculus with 11 samples.

Results

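DNA repair and damage checkpoint genes were followed in mouse small cell lung tumors with a MYCN transgene switched on or off. The set held 42 genes, taken by symbol from 7 pathways, and all 42 were among the 23284 genes of the deposited count tables. Poly(A) RNA was sequenced from 11 tumors, a neuroendocrine carcinoma of the lung, whose labelled genotype was Rb;p53,TRE-MYCN, LSL-RTTA. All tumors therefore carried the Rb and p53 alleles, the doxycycline-responsive MYCN transgene and the Cre-dependent transactivator that drives it. The 7 MYCN ON tumors grew with doxycycline, and the 4 MYCN OFF tumors were taken 7 days after doxycycline was removed from the feed. The sources used here do not give age, sex or the Cre source. No tumor received doxycycline without MYCN, so the drug and the transgene cannot be told apart. The labels do not say that the tumors came from separate mice, and the p-values then measure only the spread between these tumors.

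Cells repair each kind of DNA lesion by a route of its own. Base excision repair removes single damaged bases, mismatch repair corrects copying errors, and nucleotide excision repair cuts out bulky adducts. Double-strand breaks are rejoined directly by end joining or copied from the sister chromatid by homologous recombination, and the Fanconi anemia pathway unhooks crosslinks. ATM, ATR and their kinases CHK1 and CHK2 stop the cell cycle meanwhile. Many recombination, Fanconi and checkpoint genes are transcribed mainly in cycling cells. Small cell lung cancer lacks RB and p53 and is treated with agents that damage DNA.

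Each MYCN ON tumor had 10324089 to 13123838 reads in genes, and each MYCN OFF tumor 8951733 to 12190957. Levels below are CPM (counts scaled to a common library total) adjusted with TMM factors. Mycn was at 36.5 to 171 CPM in MYCN ON tumors and at 5.63 to 15.7 CPM in MYCN OFF tumors. Of 10 neuroendocrine markers of this cancer, 0 were at 0 in every tumor, 1 was called higher and 1 lower in MYCN ON. Lung tissue and cell division also differed between the libraries. A lung score, the mean log2 CPM of 13 lung epithelial markers, ran from -1.10 to 6.82 in MYCN ON, and was 9.90, 1.30, 6.94 and 7.66 in MYCN OFF tumors 1 to 4. The summed level of these markers was 8.41 to 3450 CPM in MYCN ON and 58.4 to 33500 CPM in MYCN OFF, with none of the 13 genes at 0 in every tumor. A mitosis score over 18 genes ran from 7.22 to 8.13 in MYCN ON, and was 5.05, 7.46, 6.83 and 5.34 in MYCN OFF. The mitosis score differed by 1.40 (two-sided exact permutation p = 0.0152, adjusted p = 0.0455 over 6 marker lists), the immune score by -2.03 (exact permutation p = 0.0152, adjusted p = 0.0455) and the lung score by -4.55 (exact permutation p = 0.0606, adjusted p = 0.113). In bulk tumors, fewer cells of a type and less RNA per cell cannot be told apart.

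Of the 42 genes, 11 rose in MYCN ON and 0 fell, at a Benjamini-Hochberg adjusted p below 0.05 over 15237 genes by edgeR's quasi-likelihood test. Genes past that threshold are referred to as called. These were 26.2% and 0% of the repair genes, against a background of 16.0% of all genes called higher and 13.4% called lower. DESeq2 called 14 of the 42 higher and 0 lower (17.5% and 19.2% of all genes), and limma voom 16 higher and 0 lower (16.5% and 12.1%). At an unadjusted p below 0.05, 0 repair genes were lower by edgeR, 1 by DESeq2 and 0 by limma voom. The median log2 fold change, MYCN ON over MYCN OFF, was 0.73 over the 42 genes and 0.0023 over all genes, and 38 of the 42 were above 0. For 10 of the genes every MYCN ON tumor exceeded every MYCN OFF tumor, and for 0 the reverse held, against 11.4% and 5.41% of all genes. By pathway, 5 of 10 base excision, 2 of 4 mismatch, 2 of 7 checkpoint, 1 of 10 recombination and 1 of 4 end joining genes rose, and 0 of 4 nucleotide excision and 0 of 3 Fanconi genes were called. DESeq2 and limma voom also called 0 genes in each of these groups. At an unadjusted p below 0.05, nucleotide excision had 0 genes by edgeR, DESeq2 and limma voom. The Fanconi group had 0 by edgeR, 1 by DESeq2 and 3 by limma voom, all higher. The median log2 fold change was 0.23 for nucleotide excision and 0.84 for the Fanconi group. The split of all calls depended on the scaling: 54.5% of them were higher with TMM factors, 37.0% when upper quartile factors were used and 28.2% by library totals. The median log2 fold change of all genes was -0.21 by upper quartile scaling and -0.31 by library totals. Under these scalings 11 and 10 repair genes were called higher (26.2% and 23.8%), against 11.1% and 8.64% of all genes. With library totals Ogg1 was called lower (log2 fold change -0.65, edgeR adjusted p = 0.0449), against -0.35 and an adjusted p of 0.259 with TMM factors.

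**Figure D1:**
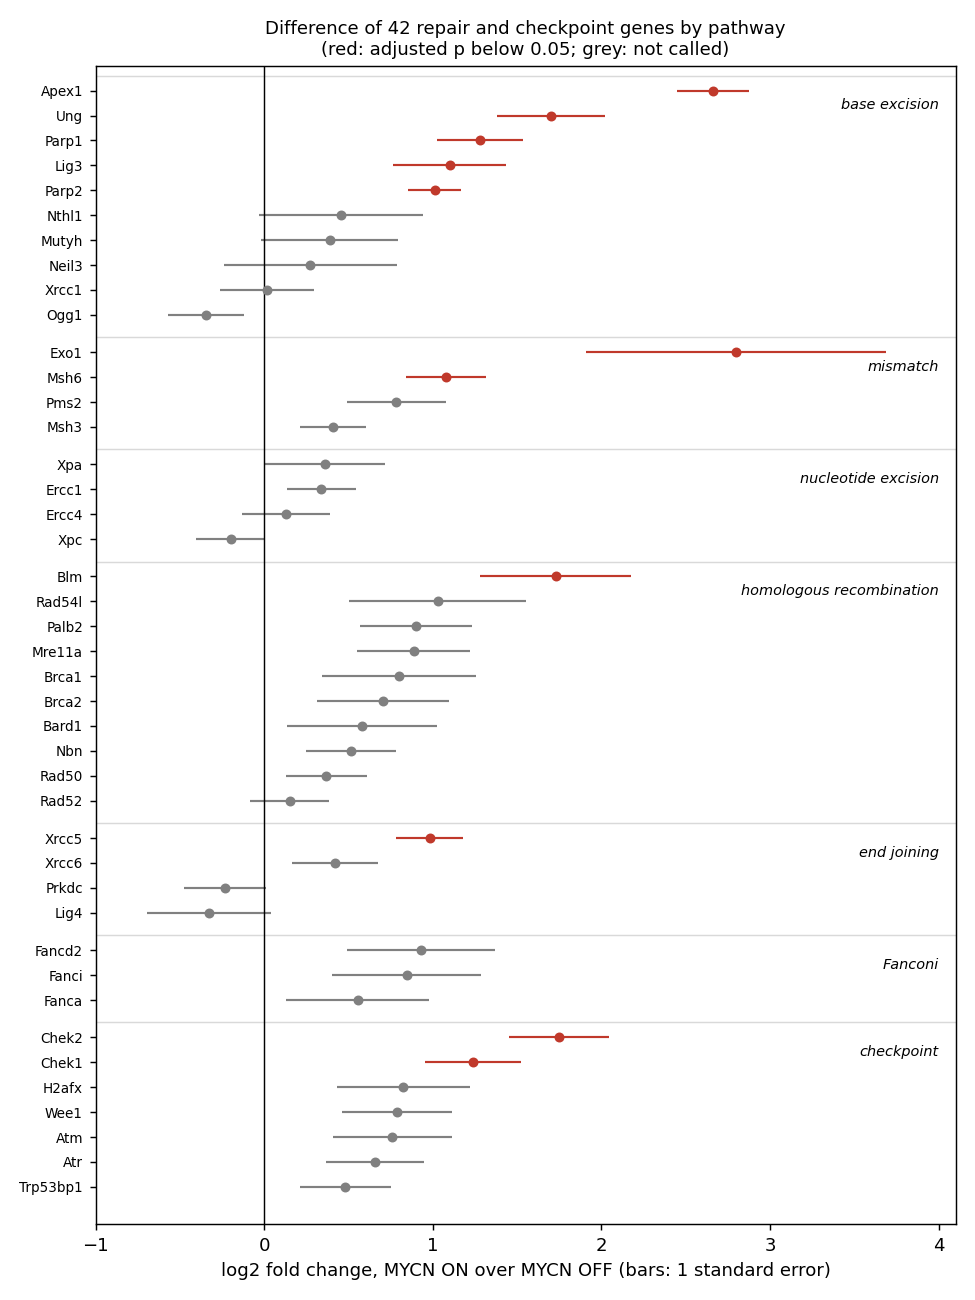
Log2 fold change, MYCN ON over MYCN OFF, of the 42 genes grouped by pathway, with bars of 1 standard error. The 11 red genes passed an adjusted p of 0.05 and all lie above 0, while 4 genes (Ogg1, Xpc, Prkdc and Lig4) lie below 0 and were not called.

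The promoters of 5 called genes are shown because they differ in the E-box CACGTG, the sequence that MYC family proteins bind as dimers with MAX. RefSeq promoters of build GRCm38.p6 (250 bases before and 50 after the annotated start) were matched for 34 of the 42 genes; Exo1, Xpc, Rad50, Nbn, Prkdc, Fancd2, H2afx and Wee1 had no entry. Shown are the 3 called genes with the smallest p whose promoter holds CACGTG, then the 2 whose promoter does not. Capitals mark CACGTG, or an E2F site searched as TTTGGCGC or TTTCCCGC on both strands (GCGGGAAA is the reverse of TTTCCCGC). The CHR element TTTGAA was searched as well and is in none of the 5 windows. The regions are chr14:50924699-50924998 for Apex1, chr14:50807666-50807965 for Parp2, chr1:72307171-72307470 for Xrcc5, chr5:110839733-110840032 for Chek2 and chr5:114130185-114130484 for Ung, all on the plus strand.
Apex1: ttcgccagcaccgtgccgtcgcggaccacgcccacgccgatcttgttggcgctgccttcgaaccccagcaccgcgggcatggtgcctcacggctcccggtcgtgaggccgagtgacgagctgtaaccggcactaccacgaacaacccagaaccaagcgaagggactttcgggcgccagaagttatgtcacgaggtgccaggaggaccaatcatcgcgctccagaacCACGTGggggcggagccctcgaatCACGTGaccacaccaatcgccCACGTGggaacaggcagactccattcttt
Parp2: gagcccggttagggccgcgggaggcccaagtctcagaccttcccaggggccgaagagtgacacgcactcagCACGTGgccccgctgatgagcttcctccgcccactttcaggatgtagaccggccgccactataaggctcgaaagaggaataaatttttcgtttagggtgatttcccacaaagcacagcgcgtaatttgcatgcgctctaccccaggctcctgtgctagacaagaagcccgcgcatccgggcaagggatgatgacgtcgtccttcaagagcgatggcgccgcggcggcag
Xrcc5: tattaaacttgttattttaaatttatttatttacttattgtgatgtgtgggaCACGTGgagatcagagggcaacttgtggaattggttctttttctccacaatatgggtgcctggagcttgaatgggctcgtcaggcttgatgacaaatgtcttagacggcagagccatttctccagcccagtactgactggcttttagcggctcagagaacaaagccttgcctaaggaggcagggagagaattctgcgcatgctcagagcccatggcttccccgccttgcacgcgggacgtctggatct
Chek2: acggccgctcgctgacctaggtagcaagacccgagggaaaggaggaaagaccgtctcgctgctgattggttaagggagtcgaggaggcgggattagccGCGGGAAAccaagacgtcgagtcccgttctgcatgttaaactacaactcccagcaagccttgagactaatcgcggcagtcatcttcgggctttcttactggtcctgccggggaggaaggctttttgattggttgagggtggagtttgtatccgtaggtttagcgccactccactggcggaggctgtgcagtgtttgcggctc
Ung: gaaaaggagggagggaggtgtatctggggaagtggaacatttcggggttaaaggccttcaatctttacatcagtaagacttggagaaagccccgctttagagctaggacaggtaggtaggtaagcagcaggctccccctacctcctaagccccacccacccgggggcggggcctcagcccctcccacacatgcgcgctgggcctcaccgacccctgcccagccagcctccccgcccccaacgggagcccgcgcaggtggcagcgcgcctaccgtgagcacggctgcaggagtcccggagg
The Apex1 window held 3 copies of CACGTG, starting at bases -24, 1 and 22 counted from the annotated start. Parp2 and Xrcc5 held 1 copy each, at -179 and -198. An E-box was found in 5 of the 10 called genes with a promoter entry (Apex1, Parp1, Parp2, Lig3 and Xrcc5) and in 0 of the 24 genes that were not called. Over all 34 repair promoters the share was 14.7%, against 11.3% of all tested genes. Among all tested genes with an entry, 15.1% of those called higher, 10.8% of those not called and 9.04% of those called lower held one. The E2F site was in 6 of the 34 repair promoters (17.6%), against 3.18% of all tested genes, and the CHR element in 1 of 34 (2.94%), against 14.3%. A match describes letters in a window and not a bound site.

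In base excision repair 5 of 10 genes rose. Apex1, the endonuclease that cuts the strand at abasic sites, ranked number 2 of all 15237 genes by p. It had 39.9 to 69.8 CPM in MYCN ON tumors, with a median of 46.2 CPM, against 8.16, 8.92, 7.90 and 6.75 CPM in MYCN OFF tumors 1 to 4. Every MYCN ON tumor exceeded every MYCN OFF tumor by a wide margin, and the MYCN OFF tumors were nearly alike, with a coefficient of variation of 11.3%. On the log2 scale the difference was 2.66 (SE 0.21, edgeR adjusted p = 2.25e-04), a 6.31-fold difference. In all, 19 of the 42 genes share exon sequence with another annotated gene. Apex1 overlaps exons of Pip4p1 on the opposite strand in the GENCODE annotation. The strand setting of the counting is not stated, so how reads of the shared sequence were counted is not known. A summary row of ambiguous reads, kept apart from the genes, held 0.831% to 1.04% of records.

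Ung, the glycosylase that removes uracil from DNA, was the next largest difference of the pathway. It had 51.1 to 107 CPM in MYCN ON (median 70.6 CPM), against 10.9, 32.9, 31.2 and 17.9 CPM in MYCN OFF. The groups did not overlap, and MYCN OFF tumors 1 and 4 were the lowest. On the log2 scale it differed by 1.70 (SE 0.32, edgeR adjusted p = 0.00355). Parp1 and Parp2, poly(ADP-ribose) polymerases that sense strand breaks, also rose. Parp1 had 204 to 365 CPM in MYCN ON (median 352 CPM), against 86.4, 186, 139 and 94.1 CPM in MYCN OFF, a 2.42-fold difference (adjusted p = 0.00479). Parp2 had 56.2 to 83.3 CPM in MYCN ON (median 63.4 CPM), against 33.7, 34.9, 28.3 and 31.2 CPM in MYCN OFF, a 2.02-fold difference (adjusted p = 0.00139). Parp1 varied among MYCN OFF tumors, with tumor 2 close to the lowest MYCN ON tumor, while the MYCN OFF values of Parp2 lay close together.

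Lig3, the ligase that seals single-strand nicks with XRCC1, was the called gene whose groups overlapped. It had 53.4 to 160 CPM in MYCN ON (median 111 CPM), against 34.3, 80.0, 50 and 34.9 CPM in MYCN OFF. MYCN OFF tumor 2 exceeded MYCN ON tumors 5 and 7. The difference was 2.14-fold (edgeR adjusted p = 0.0296), and the call was lost without any 1 of MYCN ON tumors 1, 3 and 4 or MYCN OFF tumors 1, 3 and 4, with adjusted p-values from 0.05 to 0.089. Its partner Xrcc1, the scaffold of the pathway, averaged 70.2 ± 9.56 CPM in MYCN ON and 69.4 ± 39.1 CPM in MYCN OFF (SD, n = 7 and 4), with MYCN OFF tumor 2 at 126 CPM above all other tumors. The 8-oxoguanine glycosylase Ogg1 averaged 11.1 ± 1.603 CPM in MYCN ON and 14.1 ± 1.90 CPM in MYCN OFF. The other glycosylases Mutyh, Nthl1 and Neil3 had log2 fold changes of 0.39, 0.46 and 0.27 and adjusted p-values from 0.494 to 0.716.

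**Figure D2:**
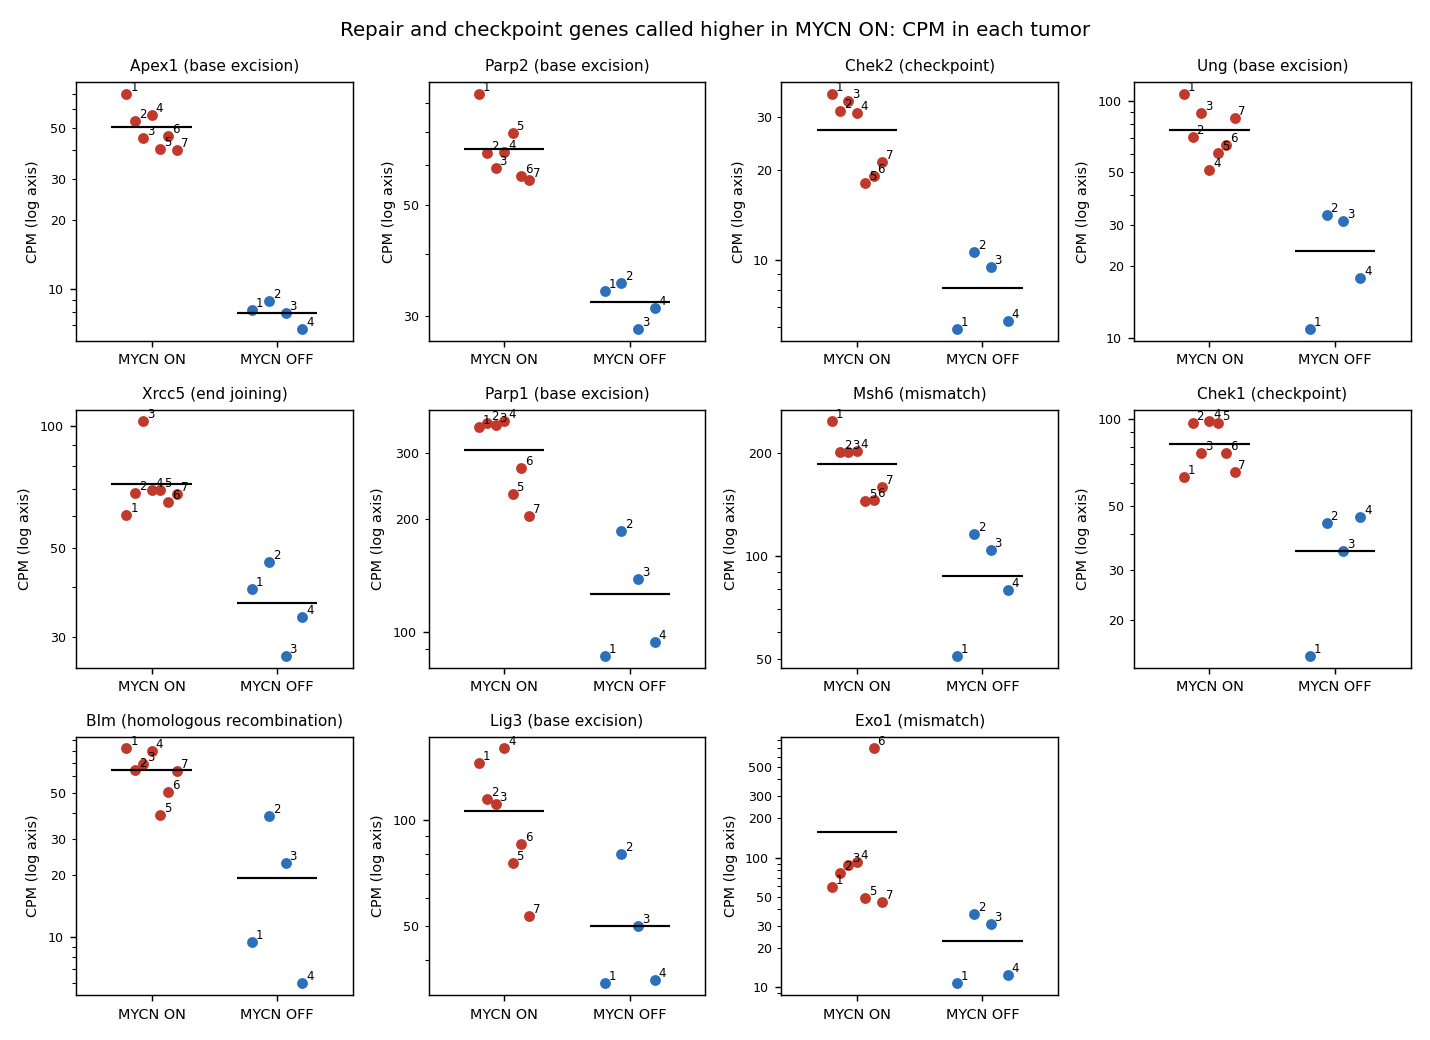
CPM on a log axis of each called gene in every tumor, numbered within its group, with the group mean as a line and genes ordered by p. The groups are separate for 10 of the 11 genes and overlap for Lig3, and Exo1 has a single tumor at 693 CPM.

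In mismatch repair, Msh6 and Exo1 rose. Msh6, a subunit of the complex that recognizes single mismatches, had 145 to 247 CPM in MYCN ON (median 201 CPM), against 51.2, 116, 104 and 79.9 CPM in MYCN OFF. The groups did not overlap (log2 fold change 1.08, SE 0.24, edgeR adjusted p = 0.00735). Its exons overlap Fbxo11 on the opposite strand in the annotation. Exo1, the exonuclease that removes the mismatched strand, had 45.3 to 693 CPM in MYCN ON (median 75.9 CPM), against 10.8, 36.7, 30.6 and 12.4 CPM in MYCN OFF. MYCN ON tumor 6 alone was at 693 CPM, and the other MYCN ON tumors lay between 45.3 and 92.5 CPM. On the log2 scale the difference was 2.80 (SE 0.89, edgeR adjusted p = 0.0345) with that tumor and 1.59 (adjusted p = 0.0159) without it. DESeq2 gave 1.49 (adjusted p = 3.43e-04), and limma voom gave 2.21 and did not call the gene (adjusted p = 0.0565). The edgeR call was also lost without MYCN OFF tumor 1, 3 or 4 (adjusted p = 0.0957, 0.0650 and 0.0924). Pms2, an endonuclease subunit of the pathway, averaged 44.0 ± 9.73 CPM in MYCN ON and 25.5 ± 11.04 CPM in MYCN OFF (log2 fold change 0.78, edgeR adjusted p = 0.0616), and was called higher by DESeq2 (adjusted p = 0.0426) and limma voom (0.0466). Msh3, which recognizes larger loops, had a log2 fold change of 0.41 (adjusted p = 0.137).

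None of the 4 nucleotide excision genes passed the test. The damage sensor Xpc averaged 37.3 ± 6.68 CPM in MYCN ON and 42.9 ± 11.8 CPM in MYCN OFF. The verifying factor Xpa averaged 13.5 ± 5.54 CPM in MYCN ON and 10.6 ± 4.05 CPM in MYCN OFF. Ercc1 and Ercc4, which form the nuclease that cuts 5′ of the lesion, averaged 25.7 ± 3.92 and 29.4 ± 6.83 CPM in MYCN ON, against 20.4 ± 4.35 and 26.9 ± 9.58 CPM in MYCN OFF. The log2 fold changes of the pathway ran from -0.20 to 0.36, with adjusted p-values from 0.228 to 0.737.

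Of the 4 end joining genes, 1 rose. Xrcc5, which encodes KU80 of the break-binding Ku dimer, had 60.5 to 103 CPM in MYCN ON (median 68.3 CPM), against 39.5, 46.1, 27.0 and 33.7 CPM in MYCN OFF. The groups did not overlap (log2 fold change 0.98, SE 0.20, edgeR adjusted p = 0.00473). Xrcc6, the KU70 partner, had 58.4 to 98.0 CPM in MYCN ON (median 79.9 CPM), against 33.2, 90.4, 47.6 and 65.3 CPM in MYCN OFF. MYCN OFF tumors 2 and 4 lay within the MYCN ON range, and Xrcc6 did not pass the test (log2 fold change 0.42, adjusted p = 0.231). Prkdc, the kinase recruited by Ku, averaged 38.9 ± 9.57 CPM in MYCN ON and 45.7 ± 14.3 CPM in MYCN OFF (log2 fold change -0.23, adjusted p = 0.493). Lig4, the ligase of the pathway, averaged 31.96 ± 15 CPM in MYCN ON and 40.1 ± 23.8 CPM in MYCN OFF (log2 fold change -0.33, adjusted p = 0.529).

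Among the 10 recombination genes, edgeR called Blm higher, and DESeq2 and limma voom called Blm, Palb2 and Mre11a. Blm, the helicase that dissolves recombination intermediates, had 39.2 to 82.0 CPM in MYCN ON (median 64.7 CPM), against 9.52, 38.5, 23.0 and 6 CPM in MYCN OFF. The groups were separate by a narrow margin, since MYCN OFF tumor 2 nearly reached MYCN ON tumor 5. On the log2 scale it differed by 1.73 (SE 0.45, edgeR adjusted p = 0.0152). Brca1, which directs resection of breaks, had 60.2 to 132 CPM in MYCN ON (median 82.8 CPM), against 13.4, 100, 61.1 and 24.3 CPM in MYCN OFF. MYCN OFF tumor 2 lay above the MYCN ON median and tumors 1 and 4 lay far below the lowest MYCN ON tumor, and Brca1 did not pass the test (log2 fold change 0.80, adjusted p = 0.201). Brca2, which loads the strand exchange protein, had 34.6 to 102 CPM in MYCN ON (median 79.6 CPM), against 20.6, 78.5, 43.0 and 30.4 CPM in MYCN OFF (log2 fold change 0.70, adjusted p = 0.191).

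Of the other recombination genes, Palb2, the bridge between BRCA1 and BRCA2, had 15.7 to 24.0 CPM in MYCN ON (median 17.5 CPM), against 6.32, 19.3, 8.72 and 6.47 CPM in MYCN OFF (log2 fold change 0.90, edgeR adjusted p = 0.0586, DESeq2 0.0255, limma voom 0.0208). Mre11a, the nuclease of the MRE11-RAD50-NBS1 break sensor, had a log2 fold change of 0.89 (edgeR adjusted p = 0.0649, DESeq2 0.0415, limma voom 0.0408), Rad50 of 0.37 (0.260) and Nbn of 0.52 (0.159). The BRCA1 partner Bard1 had 0.58 (adjusted p = 0.340), the strand exchange motor Rad54l 1.03 (0.156) and the annealing protein Rad52 0.15 (0.658). The Fanconi genes Fancd2 and Fanci, whose products are clamped onto DNA together, had 0.93 (adjusted p = 0.126) and 0.84 (0.166), and Fanca of the core complex 0.55 (0.340). All 12 recombination and Fanconi genes that were not called had a log2 fold change above 0. MYCN OFF tumor 2 lay above the lowest MYCN ON tumor in 12 of these 12, tumor 3 in 6, and tumors 1 and 4 in 2 each. These genes were taken because they were not called, and the same counts over all genes are not given here.

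Both checkpoint effector kinases rose, while the apical kinases did not pass edgeR's test (limma voom called Atm, H2afx and Wee1 as well). Chek2, the kinase downstream of ATM, had 18.1 to 35.8 CPM in MYCN ON (median 30.9 CPM), against 5.92, 10.7, 9.53 and 6.29 CPM in MYCN OFF. The groups did not overlap, and on the log2 scale the difference was 1.75 (SE 0.30, edgeR adjusted p = 0.00201), a 3.36-fold difference. Chek1, the kinase downstream of ATR, had 63.0 to 98.5 CPM in MYCN ON (median 76.5 CPM), against 15, 43.7, 34.9 and 45.7 CPM in MYCN OFF. The groups did not overlap here either (log2 fold change 1.24, SE 0.28, edgeR adjusted p = 0.00910). Atm had 90.9 to 189 CPM in MYCN ON (median 113 CPM), against 36.9, 139, 57.1 and 47.3 CPM in MYCN OFF (log2 fold change 0.76, adjusted p = 0.120). Atr had 30.4 to 72.9 CPM in MYCN ON (median 61.2 CPM), against 35.2, 41.7, 35.3 and 22.3 CPM in MYCN OFF (log2 fold change 0.66, adjusted p = 0.105). The differences between Chek2 and Atm or between Chek1 and Atr were not tested. Wee1, which holds CDK1 inactive, had a log2 fold change of 0.79 (adjusted p = 0.0857), the histone variant H2afx 0.83 (0.130) and the break-site adaptor Trp53bp1 0.48 (0.197).

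**Figure D3:**
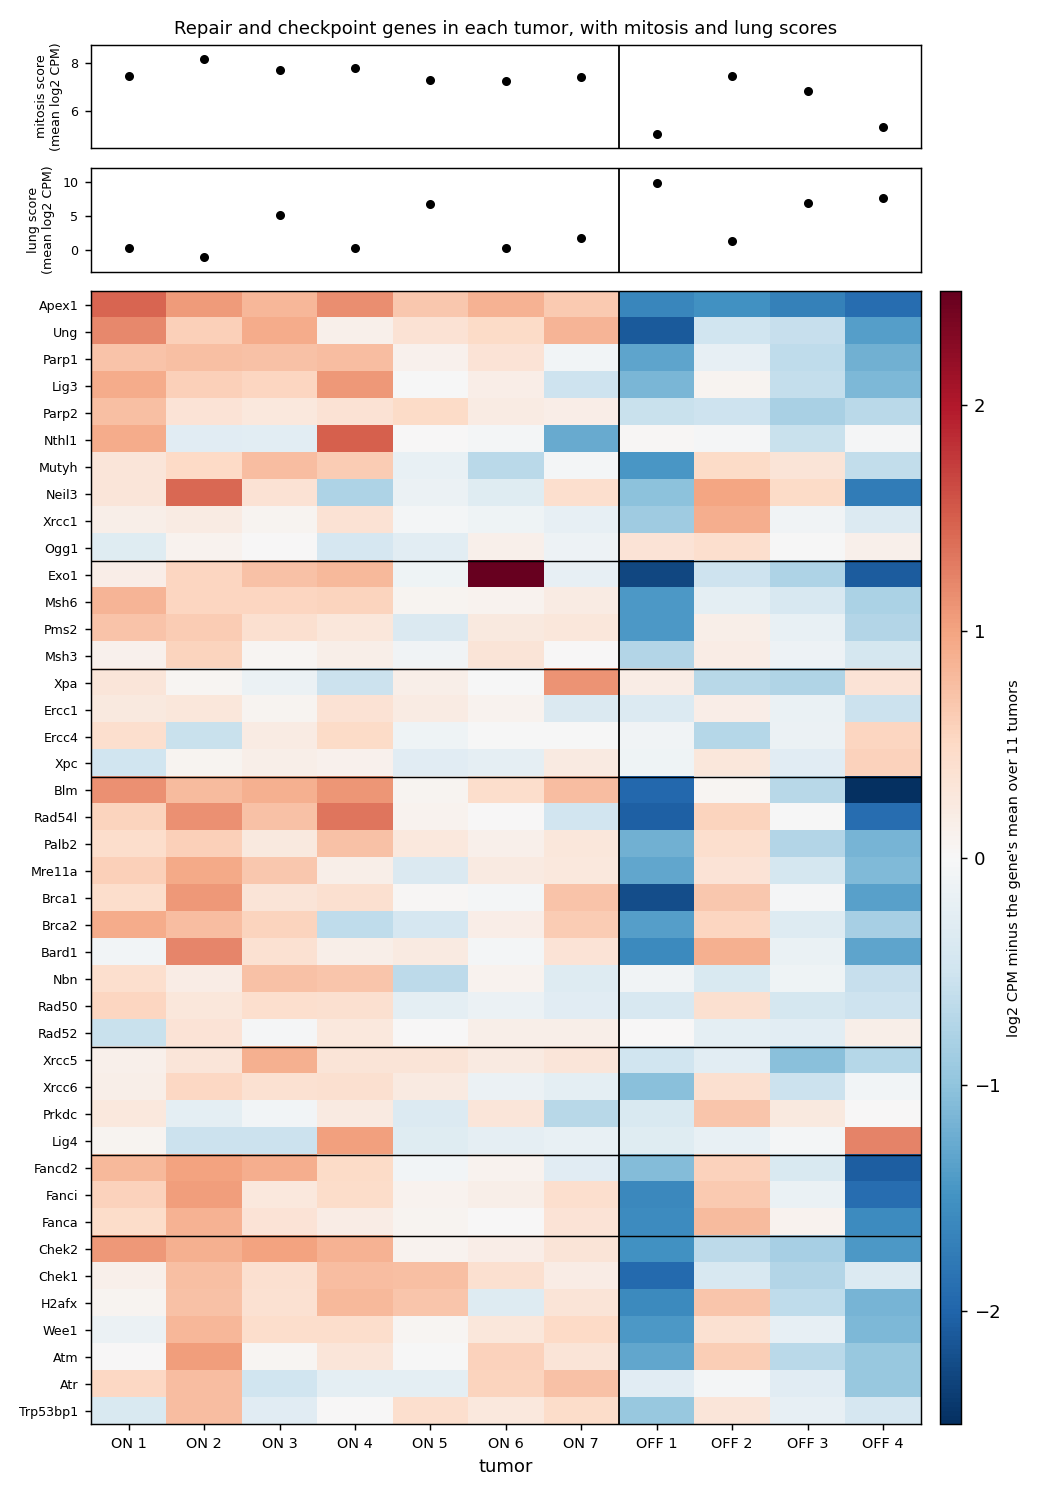
Log2 CPM of each gene minus its mean over the 11 tumors, with tumors in columns and pathways divided by lines, under the mitosis and lung scores of each tumor. MYCN OFF tumor 2 has a mitosis score of 7.46 and a lung score of 1.30. It lies above the lowest MYCN ON tumor for 30 of the 42 genes, but not for Apex1, Parp2 or Chek2. The same count over all genes is not given. The color scale ends at 2.5, and Exo1 in MYCN ON tumor 6 lies beyond it.

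MYCN OFF tumor 2 had the highest MYCN OFF level for 34 of the 42 genes. It lay above the lowest MYCN ON tumor for 30 of them, against 11, 19 and 11 for MYCN OFF tumors 1, 3 and 4. The same counts over all genes are not given here, so they cannot be read as particular to repair genes. Of the 11 called genes, MYCN OFF tumor 2 lay above the lowest MYCN ON tumor for Lig3 alone. The median coefficient of variation in MYCN OFF was 36.4% for the called genes and 53.3% for the 31 others, and in MYCN ON it was 22.2% and 25.8%. The test itself favors genes with little spread and no overlap, so these contrasts follow partly from how the genes were split. Without MYCN OFF tumor 2, edgeR called 27 of the 42 genes higher and 0 lower, with 31 higher and 0 lower at an unadjusted p below 0.05. All genes had 19.1% called higher and 15.7% called lower in that fit, and 64.3% of the repair genes were called higher. The 16 genes gained were Atm, Bard1, Brca1, Brca2, Fanca, Fancd2, Fanci, H2afx, Mre11a, Msh3, Palb2, Pms2, Rad50, Rad54l, Wee1 and Xrcc6. Their log2 fold changes then included 1.40 for Brca1 (adjusted p = 0.0276), 1.53 for Fancd2 (0.0154) and 1.34 for Atm (0.00521). The 3 tumors left in MYCN OFF were those with lung scores of 6.94 to 9.90 and mitosis scores of 5.05 to 6.83.

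The mitosis score differed between the groups and the lung score ran lower in most MYCN ON tumors. The comparison was therefore also fitted with each of these scores as a covariate. The immune score also passed its test between the groups but was not fitted as a covariate. With the mitosis score, Apex1 (log2 fold change 2.51, edgeR adjusted p = 0.0129) and Parp2 (1.02, adjusted p = 0.0259) remained called, and the other 9 did not. These 2 genes were 4.76% of the repair genes, against 4.71% of all genes called higher in this fit. At an unadjusted p below 0.05 by edgeR, 11 repair genes were higher (26.2%) and 1 lower (2.38%), against 13.3% and 8.73% of all genes. Exo1 lost its call with a log2 fold change of 2.59 (adjusted p = 0.205), against 2.80 without the covariate. Chek2 then had 1.18 (adjusted p = 0.0681), Ung 1.11 (0.0875) and Xrcc5 0.89 (0.0907), while Lig3 had 0.44 (0.551), Msh6 0.56 (0.214), Parp1 0.67 (0.116), Blm 0.78 (0.199) and Chek1 0.87 (0.222). The median over the 42 genes was 0.054 in this fit, against 0.73 without the covariate, and 22 were above 0 and 20 below. The median over all genes was 0.057 in this fit. Brca1 had -0.33 and Fanca -0.48 with the mitosis score, neither of them called. With the lung score, Apex1, Parp1, Parp2, Ung, Xrcc5 and Chek2 remained called, with log2 fold changes of 2.44, 0.97, 0.99, 1.45, 1.01 and 1.46. These were 14.3% of the repair genes, against 6.98% of all genes. The mitosis score passed its test between the groups and the lung score did not, and a covariate that moves with the groups also takes up part of their difference.

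**Figure D4:**
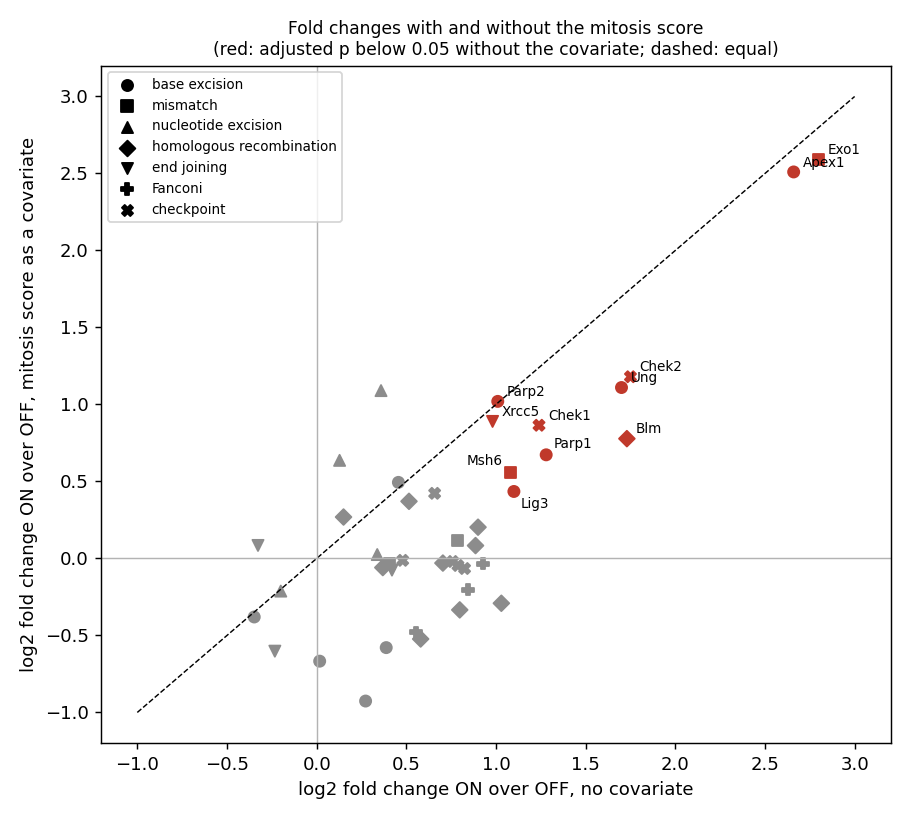
Log2 fold change of each gene with the mitosis score as a covariate (vertical) against that without it (horizontal), with pathways as symbols and the dashed line at equal values. Apex1 is at 2.51 against 2.66 and Parp2 at 1.02 against 1.01, and 20 of the 42 genes lie below 0 on the vertical axis.

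Among lung-poor tumors alone (5 MYCN ON and MYCN OFF tumor 2), a subset chosen after seeing the data, edgeR called 0 of the 42 genes, with 4 higher and 1 lower at an unadjusted p below 0.05. These were 9.52% and 2.38% of the repair genes, against 7.94% and 6.59% of all genes, of which 0 were called there. All 11 genes called in the full comparison were above 0 there, at 2.55 for Apex1, 1.35 for Chek2 and 0.87 for Parp2, and 24 of the 42 were above 0. For 10 of the 11 the full groups did not overlap, so a value above 0 was nearly fixed in advance. Among lung-containing tumors alone (MYCN ON tumors 3 and 5 and MYCN OFF tumors 1, 3 and 4), edgeR again called 0, of the repair genes and of all genes. At an unadjusted p below 0.05, 19 repair genes were higher (45.2%) and 0 lower, against 13.7% and 11.1% of all genes. Apex1 had a log2 fold change of 2.51 there, and 37 of the 42 were above 0.

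A wider list of 104 further genes of these pathways, taken from textbook membership and all tested, was read for comparison. Of these, 27 rose (26.0%, against 16.0% of all genes) and 5 fell (4.81%, against 13.4%), and the median log2 fold change was 0.43. Nucleotide excision, which had 0 calls among the 4 genes above, had 9 of 18 higher and 2 lower here. Ercc6, the transcription-coupled repair ATPase, averaged 58.4 ± 5.70 CPM in MYCN ON and 30.4 ± 3.15 CPM in MYCN OFF (log2 fold change 0.94, edgeR adjusted p = 0.00134), and the TFIIH subunits Gtf2h1 and Gtf2h2 rose 1.77-fold and 2.17-fold. These TFIIH genes also serve transcription. In base excision, which had 5 of 10 higher among the genes above, 2 of 15 rose and 2 fell here. These were 13.3% each, no more than the 16.0% and 13.4% of all genes. Parg, which removes poly(ADP-ribose), rose 2.19-fold and Tdp2, which frees blocked ends, 1.86-fold.

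In recombination 4 of 23 genes rose (17.4%, against 16.0% of all genes) and 1 fell (4.35%, against 13.4%). Brcc3, a deubiquitinase of the BRCA1-A complex, was 1.71-fold and Rbbp8, the resection factor CtIP, 2.19-fold higher in MYCN ON. In the checkpoint group 5 of 17 rose (29.4%) and 0 fell. The ubiquitin ligases Rnf168 and Rnf8, which mark chromatin at breaks, rose 1.72-fold and 1.84-fold, and Hus1 of the checkpoint clamp 1.99-fold. End joining and the Fanconi group had 2 of 6 (33.3%) and 2 of 11 (18.2%) higher. Among them were Polq, the polymerase of alternative end joining (2.61-fold), and Fancf (2.17-fold). Mismatch repair had 2 of 4 higher (50%). Rad18, the ligase that starts translesion synthesis, was the 1 of 10 (10%) called among reversal and translesion genes (2.69-fold). The recombination, Fanconi and translesion shares lay near or below the 16.0% of all genes. Among the 5 genes that fell was Mus81, a nuclease subunit that cuts recombination intermediates (log2 fold change -1.13, edgeR adjusted p = 0.0248). Neil1 and Ddb2, which also fell, were chosen after their values were seen. Neil1, a base excision glycosylase, averaged 5.78 ± 1.49 CPM in MYCN ON and 12.4 ± 4.09 CPM in MYCN OFF (log2 fold change -1.10, edgeR adjusted p = 0.0199), and Ddb2, a sensor of ultraviolet lesions, 5.32 ± 1.79 CPM in MYCN ON and 10.9 ± 2.94 CPM in MYCN OFF (-1.03, adjusted p = 0.0347). Without MYCN OFF tumor 2, 41 of the 104 genes were higher and 3 lower, against 19.1% and 15.7% of all genes. With the mitosis score as a covariate 3 of the 104 were higher and 2 lower, against 4.71% and 1.94% of all genes. The list thus had no excess of higher calls in that fit.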

How the data were processed

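Poly(A) RNA of 11 tumors was selected with oligo-dT beads and prepared with a NEBNext Ultra kit, as the labels' protocols state. HTSeq 0.6.1, TopHat2 2.0.8b, bcl2fastq 1.8.4 and mouse build mm9 are named in the submitters' processing notes; the strand setting and annotation are not given in the sources used here. The authors deposited raw read counts per gene symbol, 1 table per tumor, with 5 summary rows that stayed out of library sizes and tests (no feature 14.8% to 21.5% and not unique 9.15% to 20.9% of records). Groups and tumor numbers came from the titles.

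Counts were tested in R 4.3.3 with edgeR 4.0.16: filterByExpr by group (minimum count 10, minimum total 15; all 42 genes passed), TMM factors, and the robust quasi-likelihood test with no covariate. SE was taken as the size of the log2 fold change divided by the root of F. Values after ± are SDs, with n = 7 in MYCN ON and n = 4 in MYCN OFF. Scores are means of log2 CPM (prior count 2), compared by exact permutation over 330 splits (smallest possible p 0.00303). Alternatives were DESeq2 1.42.0, limma 3.58.1 voom, other scalings, filters and thresholds, a replicate block, score covariates and each tumor left out. All pairs of tumors within a group differed beyond sampling noise (smallest chi-square per gene 53.8).

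The 42 genes, the wider list and the marker lists were chosen with earlier results of these data known. All 42 are named; the rule gave tumor values for called genes, and those of Xrcc6, Brca1, Brca2, Palb2, Atm and Atr were added after their values were seen. Up to 3 called genes per pathway of the wider list with the smallest p are named, with some left out as not reported here.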

Additional observations from a re-analysis of the deposited data

Results flagged for a closer look

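Of 84 gene and group combinations among the 42 genes, 9 had a highest or lowest tumor set apart from the others of its group by more than Dixon's 95% limit; chance alone gives about 1 in 20. Exo1 in MYCN ON tumor 6 was at 693 CPM, against 45.3 to 92.5 CPM in the other MYCN ON tumors. In MYCN ON tumor 2, Neil3 was at 128 CPM (others 27.8 to 63.0 CPM) and Bard1 at 67.7 CPM (others 27.5 to 37.5 CPM). Xpa was at 25.3 CPM in MYCN ON tumor 7 (others 8.02 to 14.4 CPM), and Xrcc5 was at 103 CPM in MYCN ON tumor 3 (others 60.5 to 69.7 CPM). Lig4 stood apart in both groups, at 64.8 CPM in MYCN ON tumor 4 (others 22.0 to 33.5 CPM) and at 75.6 CPM in MYCN OFF tumor 4 (others 25.8 to 30.7 CPM). Rad50 was at 80.5 CPM in MYCN OFF tumor 2 (others 42.7 to 46.5 CPM). Nthl1 was at 3.92 CPM in MYCN OFF tumor 3 (others 5.63 to 5.92 CPM).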

How the results depend on the processing

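For 10 of the 11 called genes the groups did not overlap, so their direction was nearly fixed in advance when tumors were left out. The 11 calls kept their direction in all 24 alternatives, of which the 0.01 threshold reused the main fit. They numbered 6 with the lung score and 2 with the mitosis score as a covariate, and 0 in the lung-poor and 0 in the lung-containing tumors alone. With 1 tumor left out they ranged from 9 to 27, highest without MYCN OFF tumor 2, and lower calls stayed at 0 to 0; library totals gave 1 lower call, Ogg1. The wider list had 27 higher calls in the main comparison, 17 with upper quartile factors, 13 with library totals, 12 at an adjusted p below 0.01, 11 with the lung score, 3 with the mitosis score and 0 in each lung subset (10 and 24 at an unadjusted p below 0.05), and 17 to 41 with 1 tumor left out. Its 5 lower calls became 0 with the replicate block (4 at an unadjusted p below 0.05), 1 at an adjusted p below 0.01, 2 with the lung score, 2 with the mitosis score, 0 in each lung subset, and 2 to 5 with 1 tumor left out. All genes gave 2437 higher and 2038 lower calls. These became 1317 and 3347 with library totals, 1187 and 516 at an adjusted p below 0.01, 1064 and 479 with the lung score, 717 and 296 with the mitosis score, and 0 and 0 in each lung subset (edgeR; 1250 and 1038 at an unadjusted p below 0.05 in lung-poor tumors, 2154 and 1744 in lung-containing tumors). The replicate block gave 1152 lower. With 1 tumor left out, higher calls ranged from 1674 to 2955 and lower calls from 1015 to 2438. The mitosis score difference ranged from 1.02 to 1.90 and the lung score difference from -6.20 to -3.40, and the lung score passed the threshold without MYCN ON tumor 5 (exact permutation p = 0.019) or MYCN OFF tumor 2 (0.00833).

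With the replicate block, 15 of the 42 genes were called higher, the 11 and Atm, Fancd2, Mre11a and Wee1. These were 35.7% of the repair genes, against 12.3% of all genes. MYCN ON tumors 5, 6 and 7 have no MYCN OFF tumor of the same number and add nothing to the contrast of that fit. It thus rests on tumors 1 to 4 of each group. Same-numbered tumors deviated together for numbers 2 and 4 (r = 0.46 and 0.27) but not for 1 and 3 (-0.16 and -0.076). The labels do not say whether the numbers pair the tumors. These correlations cannot decide it, since the tumors also varied in lung score.

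The 2 lung subsets were chosen after seeing the data. Changes of sign concerned genes that were called in neither fit. With the mitosis score these were Xrcc1 (-0.67), Mutyh (-0.58), Neil3 (-0.93), Msh3 (-0.035), Brca1 (-0.33), Brca2 (-0.030), Bard1 (-0.52), Rad54l (-0.29), Rad50 (-0.059), Xrcc6 (-0.076), Lig4 (0.085), Fanca (-0.48), Fancd2 (-0.035), Fanci (-0.20), Atm (-0.020), H2afx (-0.065), Trp53bp1 (-0.012) and Wee1 (-0.045). In lung-poor tumors alone they were Xrcc1 (-0.84), Mutyh (-0.28), Neil3 (-0.60), Ercc1 (-0.052), Brca1 (-0.14), Brca2 (-0.098), Bard1 (-0.50), Rad50 (-0.22), Xrcc6 (-0.26), Lig4 (0.28), Fanca (-0.42), Fancd2 (-0.11), Fanci (-0.12), Atm (-0.13), H2afx (-0.34) and Trp53bp1 (-0.050), and in lung-containing tumors alone Ercc4 (-0.056). Library totals turned Xrcc1 (-0.29), Neil3 (-0.048), Ercc4 (-0.20) and Rad52 (-0.16), and upper quartile factors Xrcc1 (-0.17), Ercc4 (-0.10) and Rad52 (-0.069). Xrcc1 was also below 0 with RLE factors (-0.045), DESeq2 (-0.045), no low-count filter (-0.025) and the lung score (-0.32), as was Neil3 with the lung score (-0.24). With 1 tumor left out, Xrcc1 ranged from -0.20 to 0.48, Neil3 from -0.032 to 0.80, Ercc4 from -0.032 to 0.39 and Lig4 from -0.60 to 0.18. The causes were not tested. Each of the 42 genes had at least 29 reads in each tumor, and the biological coefficient of variation was 53.7%.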
